A study of Mus musculus with 9 samples.

Results

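Distal metastases were compared with primary prostate tumours by RNA sequencing of bulk tissue, gene by gene. The libraries were taken by their tissue label: 3 distal metastases and 3 primary tumours, 6 of the 9 libraries of the study. The other 3, labelled as proximal metastases of the epididymal fat, entered the fit to share its estimate of spread and served as another reference. All mice were C57BL/6, about 9 to 10 months old, and carried the allele Ctnnb1pc(ex3)delta/+ together with another engineered allele. Every library, the primary tumours included, thus came from a mouse with both alleles, and no untreated or wild-type prostate was part of the comparison. The driver of recombination, the number of tumour pieces per library and the share of host cells are unknown from the sources used here. The tissue label places the distal metastases in the diaphragm, whereas the growth protocol names the lung. Samples are described as matched within 3 mice but no key ties a metastasis to a primary tumour, so the comparison was unpaired and replicate numbers only name the libraries.

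Loss of exon 3 from Ctnnb1 removes the part of beta-catenin that marks it for degradation, and the stabilised protein activates Wnt target genes in the nucleus. The Wnt pathway is a recurrent driver of prostate cancer. The prostate is lined by luminal secretory cells, marked by Krt8 and Krt18, above basal cells marked by Krt5 and Trp63. Epithelial sheets are held by tight junctions, adherens junctions and desmosomes, and the surface of a glandular epithelium carries ion transporters, mucins and glycosylated proteins.

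Libraries held 28334730 to 40408723 counts, and a level of 1 CPM (counts scaled to a common library total, after TMM) stood for 25.6 to 42.0 counts. The primary tumours varied more among themselves than the metastases did. Per gene, the SD of log2(CPM + 0.5) had a median of 0.49 over the primary, 0.14 over the distal and 0.14 over the proximal libraries. Primary 1 was the primary library nearest to the distal mean for 12499 of 18204 genes (68.7%), against 13.6% for primary 2 and 17.8% for primary 3. Primary 2 had the lowest TMM factor, 0.796 against 0.994 to 1.05 elsewhere, and 4.15% of its counts on Lars2 and CT010467.1 against at most 0.420%. Mitochondrial genes held 0.131% of its counts against 0.868% to 1.18% elsewhere. What set this library apart was not tested, and its extreme values below carry that limit. The fit used 1 dispersion per gene for all groups, so p-values against primary tumours can be too small.

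The luminal keratin Krt8 was present in all 6 libraries. It measured 1009.7, 3763 and 1506 CPM in primary 1, 2 and 3 and 789.6, 909 and 781 CPM in distal 1, 2 and 3. Below, lists of 3 values keep the order of replicates 1, 2 and 3, and primary tumours stand first. Basal Krt5 measured 15.4, 143 and 1355 CPM in the primary tumours and 1.55, 1.05 and 0.633 CPM in the distal metastases. It spanned a wide range among the primary tumours and was below all 3 of them in every metastasis. Ctnnb1 measured 4393, 936 and 1769 against 4208, 4451 and 3549 CPM. Its distal values were near that of primary 1, and it did not pass the test (edgeR adjusted p = 0.392). Since all mice share the genotype and the counts cover whole genes, this level checks no allele.

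Surfactant and secretoglobin markers of lung epithelium were at or near 0 in the distal libraries. Among 12 lung epithelium markers, Sftpa1, Sftpb, Scgb1a1 and Scgb3a2 had 0 counts in all 3 distal libraries. At a confidence level of 95% this allows at most 3 counts per library. Sftpc, the surfactant gene of alveolar type 2 cells, had 5 counts over the 3 distal libraries. Other markers were detected: Napsa measured 3.24, 2.34 and 5.93 CPM in the primary and 1.27, 2.71 and 5.06 CPM in the distal libraries. Hopx measured 5.47, 3.35 and 16.3 against 2.07, 2.64 and 3.4 CPM, and the groups overlapped for both. The 12 markers summed to 5.42, 7.16 and 10.2 CPM in distal 1, 2 and 3 and to 11.9, 22.6 and 43.8 CPM in the primary tumours, so the metastases were not above them. Skeletal muscle markers were present in 2 of the 3: their summed level was 22.2, 1079.6 and 1331 CPM in distal 1, 2 and 3, 62.5, 34.1 and 48.4 CPM in the primary tumours and 17.2, 24.9 and 12.8 CPM in the proximal metastases. Distal 2 and 3 thus carried muscle transcripts well above the primary level and distal 1 did not. Results on muscle genes are given with and without distal 1 below.

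Of 18204 genes tested, 16 passed the threshold (edgeR quasi-likelihood F-test, Benjamini-Hochberg adjusted p below 0.05), and all 16 fell in the distal metastases. These are 0.0879% of the genes tested. No gene was called higher, although 708 genes (3.89%) had an unadjusted p below 0.05 in that direction and 2457 (13.5%) in the lower direction. DESeq2 called 1444 genes (8.03%), 205 higher (1.14%) and 1239 lower (6.89%), and limma-voom with sample quality weights 3127 (17.2%), 1188 higher (6.53%) and 1939 lower (10.7%). The median log2 fold change of all genes tested was -0.03, with 52% of the genes below 0 and 48% above. Distal values lay below all 3 primary values for 1897 genes (10.4%) and above them for 1529 genes (8.4%). In bulk RNA, fewer cells of a type and less RNA per cell cannot be told apart, here and in all results that follow.

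**Figure D1:**
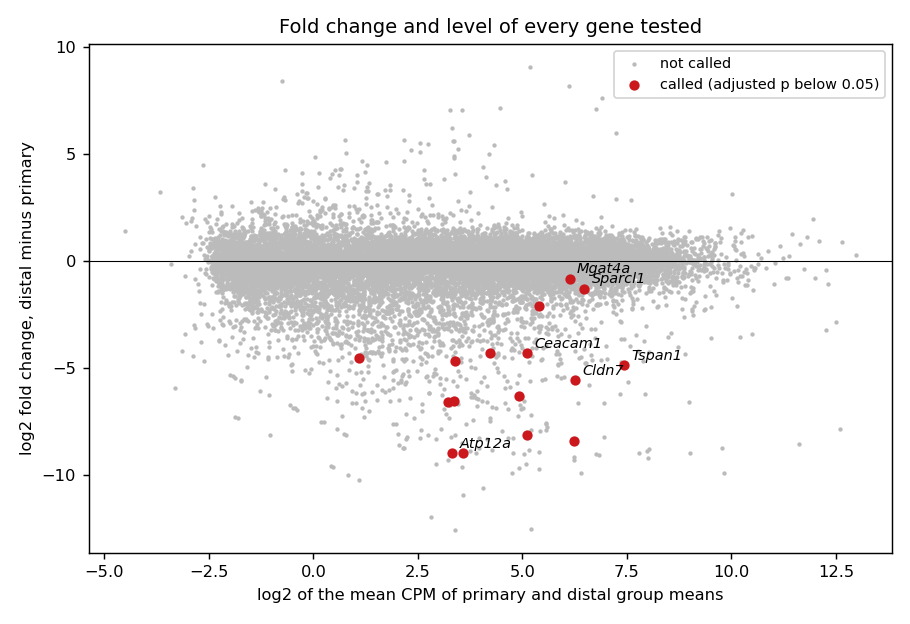
Each point is 1 of the 18204 genes tested, with the log2 of the mean CPM of the primary and distal group means on the x axis and the log2 fold change, distal minus primary, on the y axis. The 16 called genes are marked and all lie below 0, between -0.83 for Mgat4a and -8.99 for Slc6a14.

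The called genes include cell adhesion and junction genes of epithelial surfaces. Ceacam1, a homophilic adhesion molecule (ENSMUSG00000074272, at 25461707 to 25477603 of chromosome 7, GRCm38), measured 54, 54.1 and 89.9 CPM in the primary tumours and 2.62, 2.69 and 4.66 CPM in the distal metastases (edgeR log2 fold change -4.31 with SE 0.36, adjusted p = 0.0323). Cldn7, a tight junction claudin (ENSMUSG00000018569, at 69964779 to 69967885 of chromosome 11), measured 50.5, 268 and 132 against 2.75, 3.52 and 3.16 CPM (edgeR log2 fold change -5.58 with SE 0.68, adjusted p = 0.0466). Pof1b, an actin-binding protein of epithelial junctions (ENSMUSG00000034607, at 112638431 to 112698651 of chromosome X), measured 7.51, 15.9 and 31.5 against 0.0749, 0.309 and 0.166 CPM (edgeR log2 fold change -6.60 with SE 0.78, adjusted p = 0.0441). In each of these 3 genes the groups were separated by a wide gap, and the spread among primary tumours was larger than that among metastases. Ceacam1 overlaps 4732471J01Rik on the other strand, and its close paralog Ceacam2 could share reads, so its count is less certain than that of Cldn7. Other calls with a gene on the opposite strand are B3gnt7 (Gm28626), Atp12a (Gm10873), Adgrg7 (Gm15693), Sparcl1 (Gm26703) and 2010300C02Rik (4930470B04Rik and 4930556I23Rik).

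Membrane proteins of glandular and urothelial surfaces formed another set. Tspan1, a tetraspanin (ENSMUSG00000028699, at 116161869 to 116167601 of chromosome 4), stood at 123, 578 and 298 CPM in the primary tumours and 13, 12.1 and 9.19 CPM in the distal metastases (edgeR log2 fold change -4.86 with SE 0.60, adjusted p = 0.0466). Adgrg7, an orphan receptor of the adhesion family (ENSMUSG00000022755, at 56724609 to 56795855 of chromosome 16), stood at 39.6, 197 and 217 against 0.375, 0.357 and 0.599 CPM (edgeR log2 fold change -8.42 with SE 0.90, adjusted p = 0.0378). Upk1a, a tetraspanin of the urothelial plaque (ENSMUSG00000006313, at 30603092 to 30612847 of chromosome 7), stood at 4.59, 2.11 and 5.49 against 0.0999, 0.214 and 0.20 CPM (edgeR log2 fold change -4.55 with SE 0.51, adjusted p = 0.0391). Tspan1 kept a level near 10 CPM in the metastases, while Adgrg7 and Upk1a were below 1 CPM in each of them.

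Transport genes with levels near 0 in the metastases numbered 3 among the calls. Atp12a, the catalytic subunit of the non-gastric proton-potassium ATPase (ENSMUSG00000022229, at 56365068 to 56388550 of chromosome 14), measured 37.5, 8.5 and 14 CPM in the primary tumours and 0.025, 0.0238 and 0.0666 CPM, 4 counts in all, in the distal metastases (edgeR log2 fold change -8.97 with SE 0.94, adjusted p = 0.0378). Fxyd4, a regulator of the sodium-potassium ATPase (ENSMUSG00000004988, at 117933559 to 117937692 of chromosome 6), measured 13.6, 7.88 and 39.7 against 0.15, 0.214 and 0.30 CPM (edgeR log2 fold change -6.52 with SE 0.72, adjusted p = 0.0391). Slc6a14, an amino acid transporter (ENSMUSG00000031089, at 21714896 to 21742355 of chromosome X), measured 36, 7.14 and 28.6 against 0.0749, 0.0476 and 0 CPM, the latter from 5 counts (edgeR log2 fold change -8.99 with SE 1.13, adjusted p = 0.0476). With so few distal counts the fitted folds of Atp12a and Slc6a14 are imprecise, although no distal value approached the lowest primary value.

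Enzymes of glycan and lipid synthesis made up a further set. B3gnt7, which extends keratan sulfate chains (ENSMUSG00000079445, at 86302832 to 86307305 of chromosome 1), measured 72.3, 19.1 and 86.9 CPM in the primary and 0.674, 0.523 and 1.03 CPM in the distal libraries (edgeR log2 fold change -6.33 with SE 0.65, adjusted p = 0.0378). Mgat4a, which adds branches to N-glycans of surface glycoproteins (ENSMUSG00000026110, at 37439340 to 37541016 of chromosome 1), measured 92.9, 86.5 and 90.00 against 49.9, 51 and 50.7 CPM (edgeR log2 fold change -0.83 with SE 0.11, adjusted p = 0.0476). Cds1, a phospholipid synthesis enzyme (ENSMUSG00000029330, at 101765130 to 101823858 of chromosome 5), measured 19, 48.6 and 38.5 against 1.92, 1.36 and 2.2 CPM (edgeR log2 fold change -4.28 with SE 0.45, adjusted p = 0.0378). Mgat4a had the smallest fold of the called genes and the closest replicates: its 3 primary values differed little from one another, as did its 3 distal values.

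Klf4 was the called transcription factor; it acts in epithelial differentiation and in post-mitotic cells of stratified and glandular epithelia (ENSMUSG00000003032, at 55527143 to 55532466 of chromosome 4). Its level was 64.2, 51 and 87.9 CPM in the primary tumours and 17.5, 13.9 and 16.6 CPM in the distal metastases (edgeR log2 fold change -2.08 with SE 0.22, adjusted p = 0.0378). Sparcl1, a secreted matricellular protein of the SPARC family (ENSMUSG00000029309, at 104079111 to 104113733 of chromosome 5), was at 129.8, 113 and 138 against 46, 61.8 and 48.5 CPM (edgeR log2 fold change -1.29 with SE 0.15, adjusted p = 0.0441). Wfdc2, a secreted whey acidic protein domain protein of glandular epithelia (ENSMUSG00000017723, at 164562413 to 164568510 of chromosome 2), was at 29.7, 115 and 59.9 against 0.275, 0.333 and 0.0999 CPM (edgeR log2 fold change -8.12 with SE 0.97, adjusted p = 0.0441). Klf4 and Sparcl1 remained well expressed in every metastasis, whereas Wfdc2 was below 1 CPM in each. The remaining called gene, 2010300C02Rik (ENSMUSG00000026090, at 37611677 to 37720085 of chromosome 1), was at 6.95, 28 and 25.1 against 0.749, 0.714 and 0.899 CPM (edgeR log2 fold change -4.66 with SE 0.56, adjusted p = 0.0441) and overlaps other genes on both strands.

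**Figure D2:**
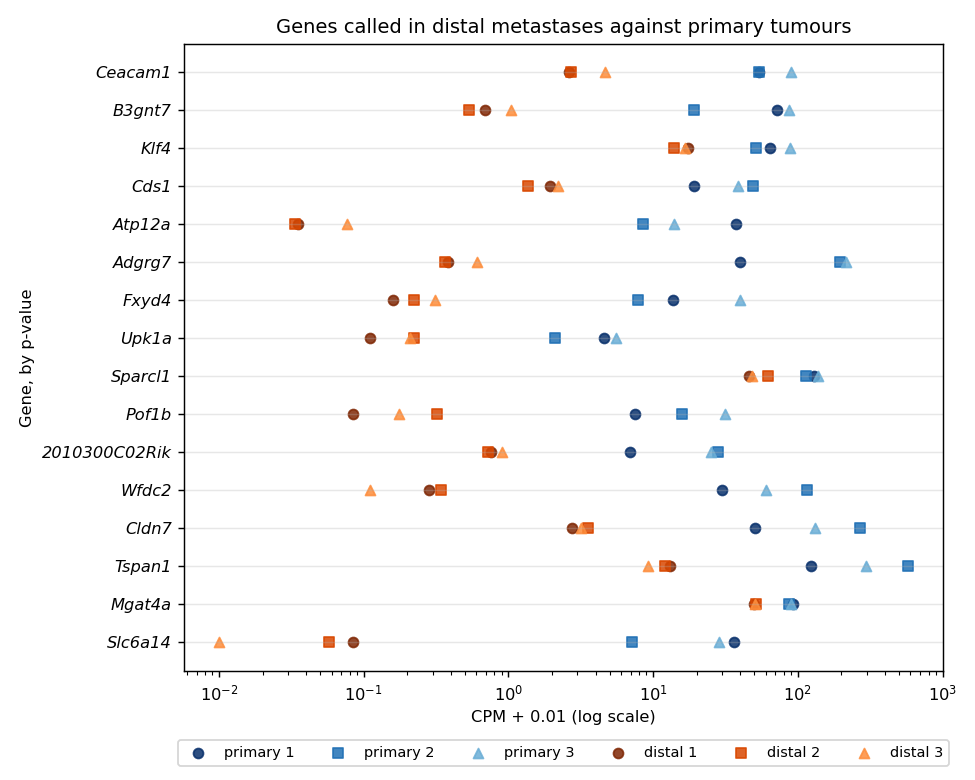
CPM + 0.01 on a log axis for the 16 called genes, ordered by p-value, with 1 point per library for the 3 primary tumours and the 3 distal metastases. Distal points lie to the left of all primary points in each gene; the primary points of Adgrg7, Cldn7 and Tspan1 spread over several fold while those of Mgat4a and Sparcl1 nearly coincide.

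Just outside the threshold stood 3 genes, among them another claudin and a prostate homeobox factor. Cldn3, of the tight junction, measured 42.7, 402 and 297 CPM in primary and 2.3, 2.57 and 2.7 CPM in distal libraries (edgeR adjusted p = 0.0513). Hoxb13, the homeobox factor of the prostate and hindgut, measured 44.4, 221 and 68.3 against 4.8, 3.02 and 4.16 CPM (edgeR adjusted p = 0.0549). Ggt6, a gamma-glutamyltransferase family member, followed with an edgeR adjusted p of 0.0549. Inside the threshold the last genes were Mgat4a and Slc6a14, both at an edgeR adjusted p of 0.0476.

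The number of calls rested on single libraries. No gene was called without primary 3, without distal 2, without distal 3 or without any 1 of the proximal libraries, where edgeR gave 2023 to 2921 genes at an unadjusted p below 0.05. Without primary 1 there were 2687 calls lower and 2516 higher, 27.4% of 19009 genes, and all 16 genes were among them. Without primary 2 there were 26, with 13 of the 16 kept, and without distal 1 there were 35, with Ceacam1 and Klf4 kept. The fold moved by over 1.5 times (log2 fold change in parentheses) for Atp12a (-8.12 without primary 1), Fxyd4 (-5.60) and Pof1b (-5.96, both without primary 3), Wfdc2 (-7.51), Cldn7 (-4.86) and Tspan1 (-4.20, all without primary 2), and Slc6a14 (-9.61 without distal 1). Each of the 16 genes stayed lower in the distal metastases in all 17 alternatives run.

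Promoter sequences of the called genes were read because the set fell together. A RefSeq start site (GRCm38.p6) was found for 13 of the 16 genes, and the 250 bases before it were searched on both strands for CACCTG, the E-box bound by Snai and Zeb repressors, which is CAGGTG on the other strand. It occurred in 5 of the 13 promoters and in 4624 of 27025 promoters of all genes in the table (17.1%). The Krüppel-like factor element CACCC, or GGGTG, occurred in 9 of 13 and in 51.3% of all promoters. The LEF/TCF core CTTTGA, or TCAAAG, occurred in 0 of 13 and in 14.1%. The 5 promoters with the E-box are shown 5′ to 3′ on the strand of the gene with that element in capitals, Cds1 (chr5:101764880-101765129, plus strand), Fxyd4 (chr6:117937336-117937585, minus strand), Pof1b (chrX:112698652-112698901, minus strand), Wfdc2 (chr2:164562465-164562714, plus strand) and Tspan1 (chr4:116167599-116167848, minus strand).
Cds1: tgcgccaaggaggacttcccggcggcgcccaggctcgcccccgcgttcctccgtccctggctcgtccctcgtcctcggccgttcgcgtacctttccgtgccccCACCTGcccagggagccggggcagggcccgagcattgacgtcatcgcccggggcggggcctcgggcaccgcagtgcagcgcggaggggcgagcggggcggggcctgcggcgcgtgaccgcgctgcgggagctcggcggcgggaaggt
Fxyd4: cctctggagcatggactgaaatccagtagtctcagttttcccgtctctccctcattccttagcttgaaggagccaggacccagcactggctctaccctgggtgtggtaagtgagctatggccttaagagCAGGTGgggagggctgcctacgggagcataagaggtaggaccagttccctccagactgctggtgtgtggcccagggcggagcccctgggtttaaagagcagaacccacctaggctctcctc
Pof1b: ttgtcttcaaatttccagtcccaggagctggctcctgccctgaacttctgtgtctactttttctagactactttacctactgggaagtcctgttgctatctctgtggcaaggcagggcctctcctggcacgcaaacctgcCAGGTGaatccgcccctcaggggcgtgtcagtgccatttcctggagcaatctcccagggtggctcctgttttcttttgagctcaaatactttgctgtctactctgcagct
Wfdc2: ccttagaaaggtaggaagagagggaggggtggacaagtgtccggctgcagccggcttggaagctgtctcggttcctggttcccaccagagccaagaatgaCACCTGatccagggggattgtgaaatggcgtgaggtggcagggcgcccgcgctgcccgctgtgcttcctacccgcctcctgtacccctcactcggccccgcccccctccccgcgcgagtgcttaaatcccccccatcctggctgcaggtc
Tspan1: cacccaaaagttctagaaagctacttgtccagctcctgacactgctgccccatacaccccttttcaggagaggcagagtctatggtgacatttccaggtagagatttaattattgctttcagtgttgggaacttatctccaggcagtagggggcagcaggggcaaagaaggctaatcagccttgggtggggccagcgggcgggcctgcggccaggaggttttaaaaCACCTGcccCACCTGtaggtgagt
In Cds1 the element starts 147 bases before the RefSeq start site, in Fxyd4 121, in Pof1b 110 and in Wfdc2 150. Tspan1 holds a pair, at 24 and 15 bases before the start. The windows of Fxyd4 and Wfdc2 lie inside the genes as placed by GENCODE M21, which puts their starts at 117937692 and 164562413. The same holds for B3gnt7, which has no E-box. These windows are thus upstream of the RefSeq start only, and the 5 of 13 is not a count of sequence outside the genes. A match describes letters in the window and says nothing of binding.

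Snai and Zeb genes themselves were not called. Zeb1 measured 32.5, 15 and 24.3 CPM in primary and 30.9, 24.3 and 23.4 CPM in distal libraries, Zeb2 41.4, 25.7 and 46.7 against 40.3, 40.7 and 53.3 CPM. Snai1 measured 11.4, 1.64 and 5.12 against 16.6, 10.04 and 11.7 CPM and Snai2 23, 1.64 and 16 against 28, 21.4 and 16.5 CPM. Distal values of all 4 genes overlapped those of the primary tumours.

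Epithelial transcription factors and splicing regulators included genes whose groups overlapped and genes below every primary tumour in the metastases. Of 16 tested, 14 had a negative log2 fold change (median -0.67, against -0.03 over all genes), 1 was called (Klf4) and 8 had an unadjusted p below 0.05 (13.5% of all genes). Grhl2, a master factor of epithelial junction genes, measured 119.9, 121 and 143 CPM in the primary and 115, 138 and 107 CPM in the distal libraries. Foxa1, a pioneer transcription factor, measured 132, 193 and 211 against 121, 170.5 and 137 CPM, and the splicing factor Esrp2 76.2, 95.6 and 67.9 against 68.6, 86.7 and 65.6 CPM. Groups overlapped for all 3. Esrp1, by contrast, measured 25.5, 121 and 121 against 8.59, 9.49 and 7.06 CPM without overlap (edgeR adjusted p = 0.113). Ehf, an ETS factor, measured 243, 653 and 651 against 229, 283 and 264 CPM, with primary 1 inside the distal range. Elf5, the ETS factor of secretory lineages, measured 0.563, 58.2 and 161 against 0.30, 0.381 and 0.233 CPM: it was high in primary 2 and 3 and near its metastatic level in primary 1.

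All 20 tight and adherens junction genes tested had a negative log2 fold change (median -1.32); Cldn7 and Ceacam1 were called, and 9 of 20 had groups that did not overlap (10.4% of all genes in this direction). Cdh1, encoding E-cadherin, measured 292, 2419.8 and 884 CPM in the primary tumours and 274, 267 and 271 CPM in the distal metastases (edgeR log2 fold change -2.15 with SE 0.64, adjusted p = 0.185). Cldn4 measured 174, 2277 and 790.1 against 222, 229 and 216 CPM. Metastatic Cdh1 and Cldn4 were near the level of primary 1, and primary 2 held the highest level of both. F11r, the junctional adhesion molecule A, measured 271, 343 and 259 against 288, 261 and 278 CPM, and Tjp1, the scaffold ZO-1, 175, 121 and 329.7 against 153, 173 and 149.8 CPM. Both genes overlapped between groups. Without primary 1, 13 of the 20 were called lower (14.1% of all genes).

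Desmosome genes were of both kinds as well. Of 13 tested, 12 had a negative log2 fold change (median -0.96) and 1, Pof1b, was called. Dsp, the desmoplakin linking keratin to the plaque, measured 658, 849 and 759 CPM in primary and 637, 748 and 654 CPM in distal libraries, and Jup, plakoglobin, 798, 212 and 431 against 826, 863 and 691 CPM. Dsp values lay close together in the 6 libraries, and Jup was lowest in primary 2. Perp, a desmosomal tetraspan protein, measured 28.1, 82.4 and 221 against 10.3, 11.3 and 9.49 CPM with no overlap (edgeR log2 fold change -3.42 with SE 0.65, adjusted p = 0.113). Dsg3, the desmoglein of basal layers, was largely a transcript of primary 3, at 0.402, 1.25 and 54.1 CPM, and had 1641 against 3 counts over the libraries, a ratio of levels of 663 (exact interval for counting error 227 to 3221).

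Among 15 keratins tested, 14 had a negative log2 fold change (median -3.54) and none was called. An unadjusted p below 0.05 was found for 9 lower and 1 higher, beside 13.5% and 3.89% of all genes. Luminal Krt18 measured 800.0, 3483 and 961 CPM in the primary tumours and 965, 896 and 952 CPM in the distal metastases. Krt19 measured 277, 5167 and 1101 against 136, 178 and 249 CPM, and basal Krt15 3.83, 315 and 1002 against 1.12, 0.595 and 0.899 CPM. Krt18 overlapped between groups, whereas Krt19 and Krt15 did not. Krt6a, the keratin of activated and squamous epithelium, measured 1.5, 15.9 and 98.5 against 0.125, 0.0476 and 0.0666 CPM and belongs to a family of near-identical copies. Krt23 was the keratin with a positive log2 fold change and the 1 with an unadjusted p below 0.05 in that direction, at 301, 228 and 134 against 334, 362 and 348 CPM (edgeR log2 fold change 0.65 with SE 0.28, adjusted p = 0.286).

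Genes of the cornified envelope, made in squamous epithelium, were at low level in every metastasis. Of 18 listed, 14 were tested, all 14 had a negative log2 fold change (median -4.91) and none was called. An unadjusted p below 0.05 was found for 13 of them, beside 13.5% of all genes in this direction. Their summed level was 156, 678 and 1023 CPM in primary 1, 2 and 3 and 15.2, 12.3 and 48 CPM in distal 1, 2 and 3. Ly6d measured 10.7, 145 and 409 CPM in the primary and 2.35, 2.21 and 5.76 CPM in the distal libraries, and Tgm3, a transglutaminase, 117, 5.65 and 93 against 0.125, 0.143 and 0.20 CPM (edgeR log2 fold change -8.84 with SE 1.21, adjusted p = 0.0619). Tgm3 was high in primary 1 and 3, unlike Ly6d, which was highest in primary 3 and lowest in primary 1. A basal factor in the same libraries, Trp63, measured 2.23, 2.69 and 106 against 0.125, 0.19 and 0.366 CPM with primary 3 far above the other libraries.

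Most differentiated luminal genes of the prostate had lower levels in the metastases than in the primary tumours. Of 16 tested, 14 had a negative and 2 a positive log2 fold change (median -2.41), and none was called. An unadjusted p below 0.05 was found for 9 lower (13.5% of all genes in this direction). In 9 genes every metastasis lay below every primary tumour and in 1 above (10.4% and 8.4% of all genes). Tgm4, a secreted prostate transglutaminase, measured 5.95, 55.3 and 224 against 0.649, 0.381 and 0.466 CPM (edgeR log2 fold change -7.56 with SE 1.32, adjusted p = 0.0977). Primary 1 was the lowest primary tumour and still above every metastasis. Pbsn, encoding probasin, was almost wholly a transcript of primary 2, with 5767 against 1 counts over the libraries, a ratio of levels of 6995 (exact interval for counting error 1255 to 276340.0). Tmprss2, a membrane serine protease, measured 123, 106 and 211 against 93.6, 106 and 96.3 CPM, and Fkbp5, a co-chaperone of steroid receptors, 55.4, 51.1 and 48.6 against 39.8, 35.4 and 46.4 CPM. Both were expressed in all metastases, neither was called, and the groups overlapped for Tmprss2.

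Transport genes beyond the 3 called ones varied. Of 15 tested, 12 had a negative log2 fold change (median -1.53) and 6 were below every primary tumour in all 3 distal metastases (10.4% of all genes), the 3 called ones included. Aqp3, a water and glycerol channel, measured 5.82, 12.4 and 119 CPM in the primary tumours and 0.25, 0.238 and 0.0333 CPM in the distal metastases (edgeR log2 fold change -7.96 with SE 1.42, adjusted p = 0.101). Slc34a2, a phosphate transporter, measured 3.33, 59.2 and 44.7 against 0.0999, 0.0952 and 0.133 CPM (edgeR log2 fold change -8.32 with SE 1.13, adjusted p = 0.0619). Scnn1a, the alpha subunit of the epithelial sodium channel, measured 18.1, 10.4 and 19.6 against 9.14, 10.6 and 8.96 CPM and Slc26a4, an anion exchanger, 20.4, 0.975 and 7.73 against 18.1, 28.5 and 13.8 CPM. The last 2 overlapped between groups, so the low levels did not extend to every ion transporter.

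Of the mucin and glycosylation genes, all 13 tested had a negative log2 fold change (median -3.76) and 2 were called (B3gnt7 and Mgat4a). An unadjusted p below 0.05 was found for 11, beside 13.5% of all genes in this direction. Their summed level was 448, 388 and 424 CPM in the primary and 119, 119 and 120.3 CPM in the distal libraries, so primary 1 stood with the other primary tumours here. Agr2, a protein disulfide isomerase needed for mucin folding, measured 28.9, 12.9 and 12.4 against 0.175, 0.0952 and 0.0999 CPM (edgeR log2 fold change -7.15 with SE 1.16, adjusted p = 0.0791). Muc4, a membrane mucin, measured 1.26, 0.234 and 2.58 against 0.0499, 0.0238 and 0.0333 CPM. Fut2, a fucosyltransferase of secretory epithelia, measured 43.5, 125 and 80.6 against 54.6, 55.1 and 50.5 CPM and overlapped between groups.

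Membrane serine proteases and their inhibitors had 10 members tested, all with a negative log2 fold change (median -2.21), and none called. St14, encoding matriptase, measured 329.5, 729.5 and 459.9 CPM in the primary and 393, 429.6 and 421 CPM in the distal libraries. Prss8, encoding the membrane protease prostasin, measured 5.01, 85.7 and 82.1 against 0.899, 1.24 and 1.13 CPM (edgeR log2 fold change -5.72 with SE 0.99, adjusted p = 0.0959). The inhibitor Spint2 measured 259.9, 1135 and 802 against 224, 214 and 209 CPM. Levels of St14 overlapped between groups, while those of Prss8 and Spint2 did not. Among 6 uroplakins tested, Upk1a was called, 4 had a negative and 2 a positive log2 fold change, and Upk1b measured 9.41, 109 and 87.4 against 2.05, 1.14 and 4.66 CPM. Upk3a, of the positive ones, measured 168, 28 and 276 against 171, 257 and 225 CPM and overlapped between groups. The summed level of the uroplakins, 199.5, 141.7 and 385.7 against 182.8, 268.3 and 247.6 CPM, overlapped as well.

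**Figure D3:**
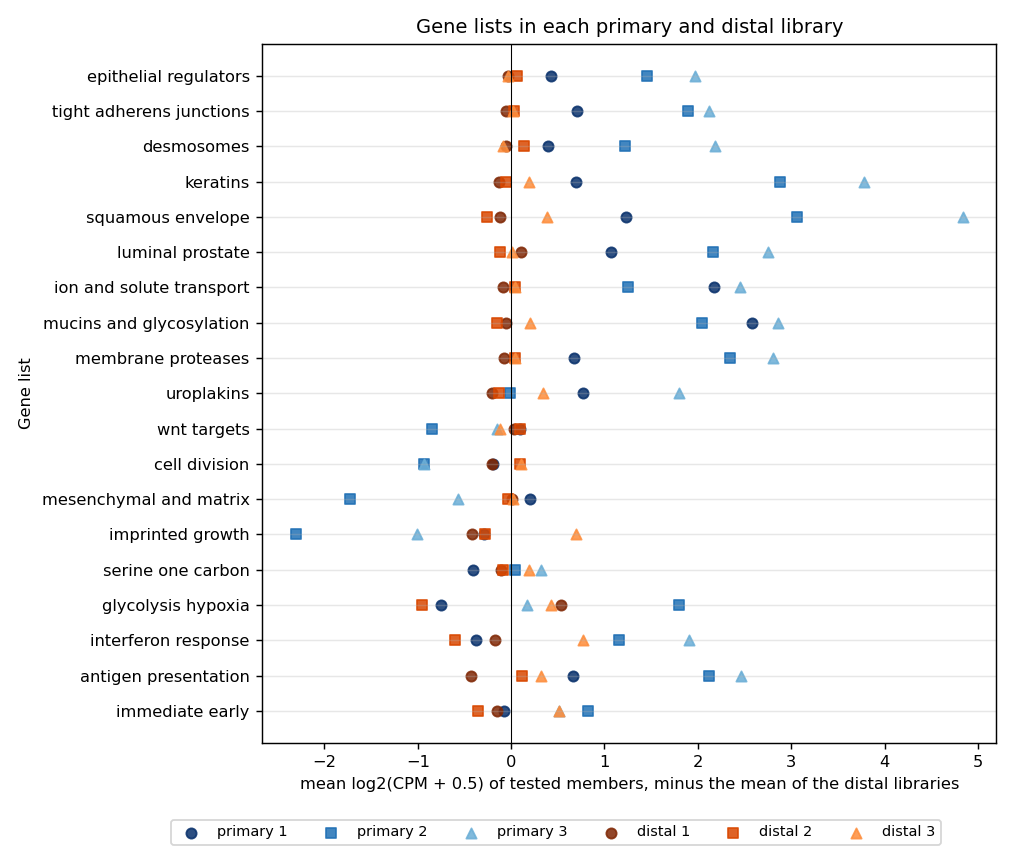
For each gene list, the mean log2(CPM + 0.5) of its tested members in each primary and distal library, minus the mean of the 3 distal libraries, with 1 point per library. For keratins primary 2 and 3 lie 2.88 and 3.78 above the distal mean and primary 1 lies 0.69 above it, whereas for mucins and glycosylation genes all 3 primary tumours lie 2.04 to 2.86 above it.

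Wnt target genes were expressed in both groups. Of 19 tested, 15 had a positive log2 fold change (median 0.45) and none was called in either direction. An unadjusted p below 0.05 was found for 3 lower and 1 higher, near the 13.5% and 3.89% of all genes. Every metastasis lay above every primary tumour in 5 genes and below in 2, against 8.4% and 10.4% of all genes. Without primary 1, 9 of the 19 were called higher and 2 lower, beside 13.2% and 14.1% of all genes. Axin2, the feedback inhibitor that reads out pathway activity, measured 760.1, 359.8 and 542 CPM in the primary tumours and 817, 861 and 759.8 CPM in the distal metastases (edgeR log2 fold change 0.55 with SE 0.26, adjusted p = 0.306). Wif1, a secreted Wnt inhibitor, measured 4362, 703 and 1672 against 5123, 4924 and 4704 CPM, and Apcdd1, a membrane-bound inhibitor, 3196, 466 and 1196 against 4043, 3995 and 3758 CPM. Distal values of Wif1 and Apcdd1 lay above all primary values, those of Axin2 overlapped primary 1, and primary 1 was the nearest for all 3. Sox9 and Dkk2 had the opposite sign: Sox9, a transcription factor of progenitor cells, measured 35, 281 and 136 against 30.9, 45.6 and 33.7 CPM and Dkk2, a Wnt modulator, 52.8, 1327 and 598 against 56.2, 47.9 and 63.4 CPM. Sfrp1, a secreted Wnt antagonist, was also lower, at 123, 29.1 and 227 against 28.5, 23.8 and 14.6 CPM without overlap (edgeR log2 fold change -2.50 with SE 0.71, adjusted p = 0.166).

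Cell division genes had positive log2 fold changes throughout. All 24 tested were positive (median 0.67), none was called, and 14 had an unadjusted p below 0.05 (3.89% of all genes in this direction). Groups did not overlap for 12 of them, against 8.4% of all genes. Mki67, the proliferation antigen, measured 201, 101 and 87.9 CPM in primary and 175, 251 and 253 CPM in distal libraries (edgeR log2 fold change 0.80 with SE 0.36, adjusted p = 0.296). Top2a, the mitotic topoisomerase, measured 189, 143 and 101 against 179, 235 and 233 CPM, and Cdk1, the kinase that drives mitotic entry, 45.7, 22.5 and 31.4 against 50.1, 58.6 and 57.2 CPM. Primary 1 was the nearest primary tumour for 21 of the 24 genes, and its Mki67 lay above that of distal 1. Without primary 1, 17 of 24 were called higher, beside 13.2% of all genes. DESeq2 called none of them with all libraries.

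Mesenchymal and matrix genes gave no call. Of 18 tested, 14 had a positive log2 fold change (median 0.47) and 1 had an unadjusted p below 0.05 (3.89% of all genes in this direction). Vim, the mesenchymal intermediate filament, measured 2062, 226 and 371 CPM in the primary and 2112, 1796 and 2082 CPM in the distal libraries, and Fn1, fibronectin, 581, 109 and 423 against 612, 669 and 1023 CPM. Primary 1 reached the metastatic level of Vim, whereas primary 2 and 3 were lower. Twist1, a mesenchymal transcription factor, measured 5.55, 0.78 and 1.7 against 20.4, 7.52 and 7.96 CPM without overlap (edgeR log2 fold change 2.15 with SE 0.75, adjusted p = 0.225). Col1a1, the main fibrillar collagen, measured 734, 386 and 377 against 604, 688 and 599 CPM and overlapped.

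H19, an imprinted growth-restraining long RNA, had the smallest p-value of all genes higher in the distal metastases. It measured 15.4, 6.71 and 9.49 CPM in the primary tumours and 60.4, 51 and 45.7 CPM in the distal metastases (edgeR log2 fold change 2.31 with SE 0.35, adjusted p = 0.0709), with every metastasis above every primary tumour. H19 overlaps 2 small genes, Gm27483 and Gm27786, on its other strand. Igf2, its reciprocally imprinted neighbour, measured 3.78, 4.99 and 6.85 against 5.99, 4.04 and 4.3 CPM and overlapped. Peg3, a paternally expressed zinc finger gene, measured 1001, 22.2 and 138 against 918, 1013 and 651 CPM. Of 11 imprinted growth genes tested, 10 had a positive log2 fold change (median 1.10). An unadjusted p below 0.05 was found for 2, H19 and Dlk1, beside 3.89% of all genes in this direction.

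Of the other genes picked by their p-value on the higher side, Lamb3, Cited1, Gldn and Mthfd2 are neither muscle nor plasma protein genes and were above every primary tumour in all 3 metastases. Lamb3, a chain of the basement membrane protein laminin, measured 177, 143 and 157 CPM in the primary and 271, 233 and 355 CPM in the distal libraries (edgeR log2 fold change 0.85 with SE 0.20, adjusted p = 0.129). Cited1, a transcriptional coregulator, measured 9.47, 1.99 and 4.51 against 22.6, 25.7 and 27.9 CPM (edgeR log2 fold change 2.25 with SE 0.52, adjusted p = 0.129). Gldn, encoding gliomedin, measured 5.58, 2.07 and 3.53 against 24.6, 11.4 and 13.6 CPM (edgeR log2 fold change 2.15 with SE 0.49, adjusted p = 0.129). Groups were separate in each of these 3. Mthfd2, the mitochondrial folate enzyme, measured 13.7, 11.8 and 13.6 against 19.7, 20.6 and 28.3 CPM (edgeR log2 fold change 0.81 with SE 0.19, adjusted p = 0.129), and none of the 4 passed the test. Psat1, of serine synthesis, measured 156, 96.9 and 103 against 212, 217 and 217 CPM (edgeR log2 fold change 0.86 with SE 0.22, adjusted p = 0.145), while Phgdh, the first enzyme of that route, measured 30.8, 154 and 46.4 against 35.1, 41.7 and 32.7 CPM. The 11 genes of serine and folate metabolism were thus mixed, with 6 positive and 5 negative log2 fold changes.

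Glycolysis and hypoxia genes varied within both groups. Of 15 tested, 13 had a negative log2 fold change (median -0.43, but 0.49 without primary 2), and none was called. Pkm, pyruvate kinase, measured 1223, 7019.8 and 1423 CPM in the primary and 2307, 1271 and 2009 CPM in the distal libraries, and Aldoa, aldolase A, 671, 3553 and 871 against 1741, 659 and 1384 CPM. Primary 2 was the highest library in both, and distal 2 was lower than distal 1 and 3. Groups overlapped for all 15 genes, while 18.8% of all genes tested had groups that did not overlap.

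All 13 antigen presentation genes tested had a negative log2 fold change (median -2.23) and an unadjusted p below 0.05 (13.5% of all genes in this direction). None was called by edgeR, and DESeq2 called 11 (6.89% of all genes in this direction). Of the class I genes, H2-K1 measured 189.6, 1292 and 1163 CPM in the primary tumours and 165, 145 and 223 CPM in the distal metastases (edgeR log2 fold change -2.31 with SE 0.61, adjusted p = 0.154). B2m, the light chain of class I, measured 153, 519 and 1743 against 107, 94.7 and 195 CPM. Both class I genes were high in primary 2 and 3, and distal 3 lay above primary 1. Of the class II genes, H2-Ab1 measured 55.2, 134 and 123 against 11.9, 28.9 and 22.5 CPM (edgeR log2 fold change -2.30 with SE 0.52, adjusted p = 0.129) and Cd74, the invariant chain, 173, 392 and 409 against 34.3, 99 and 73.8 CPM. Class II levels were below every primary tumour in all 3 metastases.

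Interferon response genes had 15 of 18 members with a negative log2 fold change (median -1.21) and none called. Groups overlapped for 17 of the 18, beside 18.8% of all genes tested whose groups did not overlap. An unadjusted p below 0.05 was found for 6 lower and 2 higher, beside 13.5% and 3.89% of all genes. The member whose groups did not overlap was higher in the metastases: Usp18, a protease that removes Isg15 and restrains interferon signalling, measured 101, 45.7 and 66 against 141, 127 and 108 CPM (edgeR log2 fold change 0.82 with SE 0.34, adjusted p = 0.271). Irf7 measured 16.3, 95.7 and 129.5 CPM in the primary and 18.3, 10.4 and 38.7 CPM in the distal libraries, and Oasl2 8.34, 91.4 and 129.6 against 5.34, 4.21 and 13.5 CPM. Primary 2 and 3 held the high values of both genes. Macrophage and T and NK cell markers were also higher in primary 2 and 3 than in primary 1. The summed level of 12 macrophage markers was 515, 864 and 778 CPM in the primary and 351, 336 and 627 CPM in the distal libraries, and that of 13 T and NK cell markers 5.79, 16.7 and 44.9 against 1.17, 3.9 and 4.06 CPM. For the macrophage sum distal 3 lay above primary 1, so the sums overlapped. Of the 12 macrophage markers, 5 were below every primary tumour in all 3 metastases and 1 was above (10.4% and 8.4% of all genes). Levels of Cd3e, a chain of the T cell receptor complex, were 0.402, 0.585 and 1.7 against 0.0749, 0.285 and 0.166 CPM. B and plasma cell markers summed to 1222, 385 and 1879.7 against 434, 549 and 602 CPM. They did not follow that order, since primary 2 was the lowest primary tumour. Xbp1 held much of the sum in primary 2 and the distal libraries, at 325, 320 and 322 against 420, 335 and 357 CPM. Ighm measured 248, 11.7 and 874 against 3.97, 110.2 and 136 CPM, and Jchain 75.2, 2.69 and 85.6 against 0.724, 11.9 and 13 CPM. Both were lowest in distal 1. The part of these cells in the class II values was not tested.

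**Figure D4:**
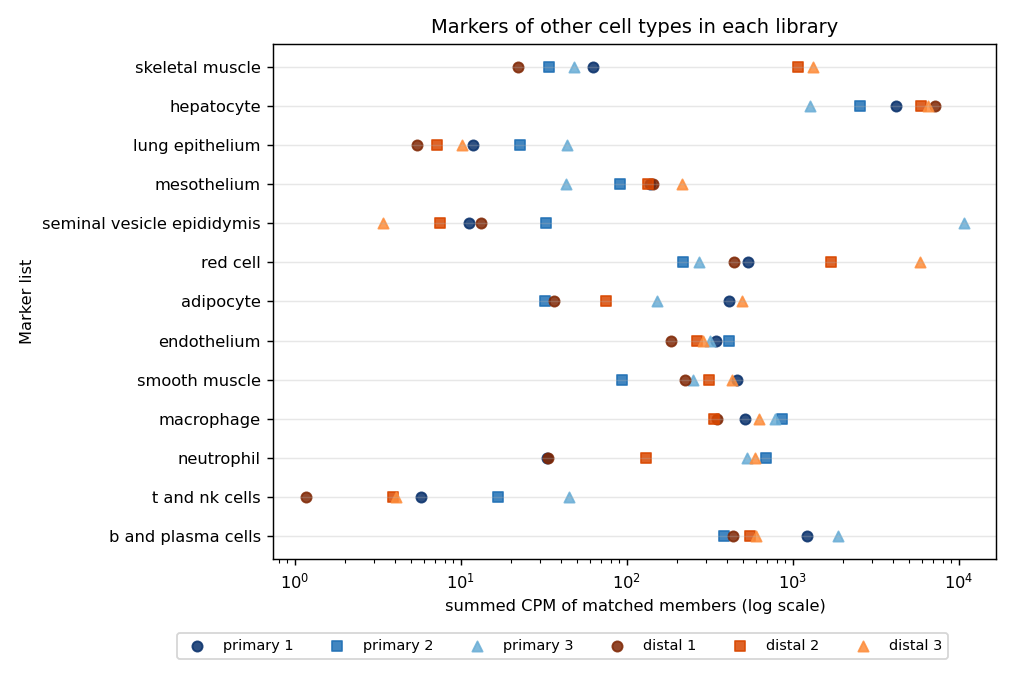
Summed CPM of the matched members of 13 marker lists of other cell types, on a log axis, with 1 point per library for the 3 primary tumours and the 3 distal metastases. Skeletal muscle is high in distal 2 and 3 alone, red cell markers are highest in distal 3, and seminal vesicle and epididymis markers reach 10678 CPM in primary 3 alone.

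Of the 12 genes picked by their p-value on the higher side, 4 are muscle genes. Tnnt3, fast skeletal troponin T, measured 0.134, 0.156 and 0.102 CPM in the primary tumours and 0.325, 81.3 and 135 CPM in the distal metastases (edgeR log2 fold change 9.08 with SE 1.88, adjusted p = 0.117). Acta1, skeletal alpha-actin, measured 0.751, 2.5 and 0.441 against 3.42, 306 and 407 CPM (edgeR log2 fold change 7.63 with SE 1.61, adjusted p = 0.12). Distal 2 and 3 were far above all other libraries in both, and distal 1 was close to the primary tumours. Ankrd23, a muscle ankyrin repeat protein, measured 14.2, 12.3 and 9.05 against 19.2, 79.2 and 56.7 CPM, and the related Ankrd1 0.483, 0.624 and 1.36 against 2.25, 8.52 and 24.4 CPM. Of 20 muscle markers 12 were tested; Myh1, Myh2 and others above 1 CPM in only 2 libraries did not pass the filter.

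Without distal 1, several muscle genes were called. Distal 1 was the distal library low in muscle transcripts, so these calls follow from leaving it out and are no separate support. Myh1, Myh2 and others passed the filter only in that smaller fit. Of 35 genes called then (0.184% of 19049 genes), 32 were higher (0.168%) and 9 of these were in the skeletal muscle list. Tnnt3 was among them (edgeR log2 fold change 9.67 with SE 0.39, adjusted p = 0.000567), as were Acta1 (edgeR log2 fold change 8.22 with SE 0.73, adjusted p = 0.016) and Ttn, encoding titin (edgeR log2 fold change 6.22 with SE 0.52, adjusted p = 0.0144). Myh2, a fast myosin heavy chain, measured 0, 0.078 and 0 CPM in the primary and 0, 94.1 and 108 CPM in the distal libraries, 2 counts against 7213. The 3 genes called lower without distal 1 were Ceacam1, Klf4 and Vipr1, a receptor of vasoactive intestinal peptide at 28.1, 29.5 and 59.8 against 4.65, 1.88 and 1.66 CPM.

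Plasma protein genes, made in liver, followed another library. Hpx, encoding hemopexin, measured 0.241, 0.897 and 0.543 CPM in the primary tumours and 52.3, 8.99 and 2.66 CPM in the distal metastases (edgeR log2 fold change 5.26 with SE 1.14, adjusted p = 0.12). Fga, a fibrinogen chain, measured 0.0804, 0.624 and 0.203 against 31.6, 6.21 and 1.4 CPM (edgeR log2 fold change 5.46 with SE 1.27, adjusted p = 0.129) and Apoa1, the apolipoprotein of high-density lipoprotein, 0.107, 1.6 and 0.441 against 49.7, 7.66 and 1.9 CPM. Distal 1 was the highest library for all 3, the library without muscle transcripts. Alb, albumin, did not follow them: it measured 4029.7, 114 and 649 CPM in the primary, 7561, 7460.3 and 5228 CPM in the proximal and 6819, 5824 and 6408 CPM in the distal libraries. Hnf4a, the hepatocyte nuclear factor, measured 54.3, 1.87 and 1.7 against 1.75, 0.571 and 0.30 CPM and was highest in primary 1. Apoa1 also reached 20.5 CPM in proximal 2, above distal 2 and 3. Of the 16 hepatocyte markers tested, 13 had a positive and 3 a negative log2 fold change. Among the negative ones, Cyp2e1 measured 34.2, 2369 and 598 against 5.82, 3.35 and 22.4 CPM without overlap (edgeR log2 fold change -6.57 with SE 1.55, adjusted p = 0.129). The part of liver-derived RNA in these values was not tested.

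**Figure D5:**
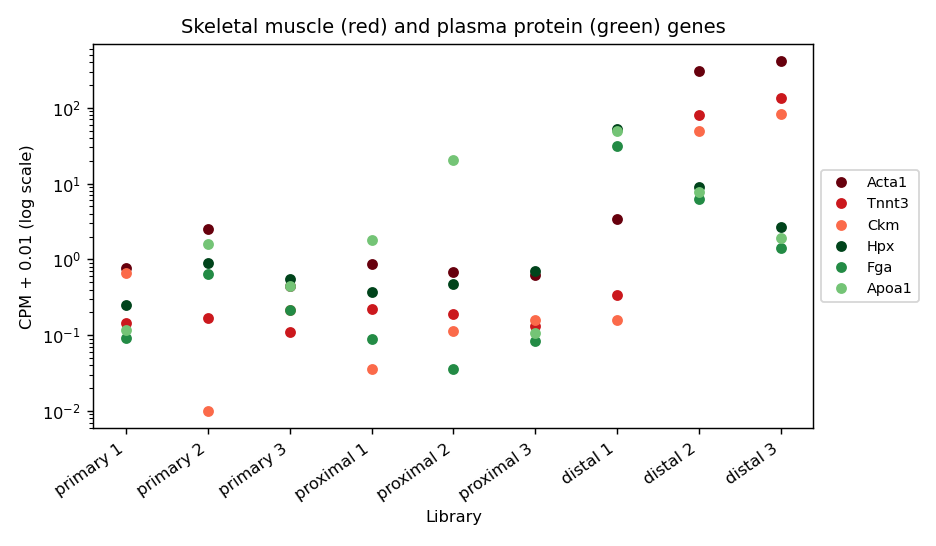
CPM + 0.01 on a log axis for skeletal muscle genes (red) and plasma protein genes (green) in each of the 9 libraries. Muscle genes are high in distal 2 and 3 and plasma protein genes are highest in distal 1.

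Red cell transcripts were highest in distal 3. The 7 red cell markers matched summed to 536, 217 and 271 CPM in the primary and 443, 1696 and 5843 CPM in the distal libraries. Alas2, the heme synthesis enzyme of erythroid cells, measured 58.4, 22.2 and 26.6 against 52.8, 180.1 and 570.5 CPM. S100a8, a calcium-binding protein of neutrophils, measured 5.23, 18.1 and 13.8 against 9.22, 38.6 and 192 CPM. Distal 1 was within the primary span of both genes. Neutrophil markers as a list were also high in 2 primary tumours: they summed to 32.9, 692 and 527 CPM in the primary and 33.7, 130.3 and 591 CPM in the distal libraries, with primary 2 the highest. Ltf, the lactoferrin of neutrophils and glandular epithelia, made up most of the sum in primary 2 and 3, at 4.48, 607 and 481 against 3.7, 4.16 and 14.2 CPM, whereas the other 8 neutrophil markers tested had a positive log2 fold change. Adipocyte markers were also uneven: they summed to 415, 32.3 and 152 CPM in the primary and 36.4, 75 and 497 CPM in the distal libraries, high in distal 3 and in primary 1. Haemoglobin genes occur as near-identical copies, so their single counts are uncertain.

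Seminal vesicle and epididymis markers were high in 1 primary library. They summed to 11.3, 32.6 and 10678 CPM in primary 1, 2 and 3 and 13.3, 7.52 and 3.4 CPM in distal 1, 2 and 3. Svs2, a secreted semen clotting protein, reached 5248 CPM in primary 3. Genes with high values in primary 3 alone, such as Trp63 and Dsg3, moved with these markers, and the part of accessory gland tissue in them was not tested. In each of the 16 called genes, primary 1 and 2 also lay above every metastasis, a pattern that the test itself favours. The part of accessory gland tissue in the called genes was not tested either.

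Compared with the proximal metastases in the same fit, the distal metastases showed no called gene in either direction. An unadjusted p below 0.05 was found for 375 genes (2.06% of 18204), 326 of them higher (1.79%) and 49 lower (0.269%) in distal. Ceacam1 measured 2.37, 3.36 and 3.52 CPM in proximal 1, 2 and 3 (log2 fold change 0.10, edgeR adjusted p = 1 for distal against proximal). Klf4 measured 14.4, 15.6 and 14.8 CPM there (log2 fold change 0.09, edgeR adjusted p = 1) and Cldn7 2.35, 5.25 and 6.31 CPM (log2 fold change -0.56, edgeR adjusted p = 1). H19 measured 36.9, 62.9 and 67.5 CPM in the proximal metastases (log2 fold change -0.09, edgeR adjusted p = 1), and Tnnt3 0.209, 0.178 and 0.122 CPM (log2 fold change 8.71, edgeR adjusted p = 1). A p that misses the threshold does not show that the sites are alike. The proximal and distal comparisons use the same 3 primary libraries and are not independent.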

How the data were processed

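Total RNA of frozen tissue was extracted with a Qiagen kit and made into libraries by standard Illumina protocols, per the labels' protocols. The authors deposited raw counts per Ensembl gene, 47069 rows per library, of which 46488 matched a symbol. The submitters' processing notes list the build GRCm38.p3 and these tools, without their settings: DESeq2 1.14.1, R 3.2.3, HTSeq 0.6.0, Bowtie2 2.2.6.0, TopHat2 2.1.0 and FastQC 0.11.4. Whether counting used strand is not given in the sources used here, so overlapping genes are uncertain.

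Genes passing edgeR's filterByExpr (minimum count 10, minimum total 15) were tested with edgeR 4.0.16's quasi-likelihood F-test in R 4.3.3 (TMM, robust, all 9 libraries, 6 residual degrees of freedom), with Benjamini-Hochberg adjustment. SE is the absolute log2 fold change over the square root of F. CPM were computed from the counts, and positions came from GENCODE M21. The script was tested on simulated data. Alternatives were DESeq2 1.42.0, limma 3.58.1 voom with quality weights, other scaling, filters and samples. No 2 libraries agreed within sampling noise (lowest chi-square per gene 24.5). P-values treat the libraries as independent.

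The comparison and the 32 gene lists were chosen with earlier results of these data known. Named genes were all 16 called, the 12 higher in distal with the smallest unadjusted p, at least 10 CPM in distal and no overlap, per list the 2 most abundant and the 2 with the smallest p, and a panel. Any other gene named was chosen after its values were seen. Muc16 and Ahsp had no identifier in the count table. Some genes, and 1 engineered allele, are not reported here. Intervals cover counting error only.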

Additional observations from a re-analysis of the deposited data

How the results depend on the processing

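The count of 16 genes, all lower, held within 1.5 times under RLE size factors (17), no low-count filter (23), a filter of 1 CPM in 3 libraries (19), no robust shrinkage (19) and removal of the 10 most abundant genes (16). It moved to 1444 with DESeq2 (1239 lower, 205 higher), to 3127 with limma-voom and quality weights (1939 lower, 1188 higher) and to 0 with the primary and distal libraries only, where edgeR gave 1916 genes at an unadjusted p below 0.05 from fewer residual degrees of freedom. Leaving out 1 library gave 0 to 5203 calls, 0 to 2687 lower and 0 to 2516 higher. The quality weights were 0.175, 0.0843 and 1.06 for primary 1, 2 and 3 and 1.78 to 2.33 for the distal libraries. Of 1928 values of 114 named genes under 17 alternatives, 1608 kept direction and call, 130 lost the call, 175 gained one and 15 changed sign. With voom weights the sign changed for Aldoa (0.35), Pkm (0.23), Esrp2 (0.058), F11r (0.055) and Zeb2 (-0.024). Leaving out 1 library moved Aldoa from -0.79 to 0.71, Pkm from -1.16 to 0.49, Krt18 from -1.22 to 0.090, St14 from -0.50 to 0.069, F11r from -0.15 to 0.057, Esrp2 from -0.24 to 0.031 and Zeb1 from 0.43 to -0.12, the last value of each being without primary 2. Without primary 3, Grhl2 reached 0.00053 (lowest -0.19), Igf2 0.13 (lowest -0.31) and Tjp1 0.10 (lowest -0.67). List medians changed sign 14 times of 544: with voom weights serine and folate (-0.20), adipocyte (-1.74) and smooth muscle (-0.41), and on leaving out 1 library uroplakins (-1.58 to 0.32), serine and folate (-0.11 to 0.28), glycolysis (-0.79 to 0.49), mesothelium (-0.44 to 1.31), adipocyte (-4.60 to 1.64) and smooth muscle (-0.30 to 0.66). The cause of these changes was not tested. No paired analysis was possible because the labels give no key from samples to mice. Levels under about 1 CPM rest on at most 42.0 counts per library.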

Other observations

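Primary 1, the primary tumour nearest to the metastases for most genes, was far from them in 3 genes chosen after their values were seen. Muc13, a membrane mucin, measured 151, 4.48 and 7.46 CPM in the primary tumours and 0.0999, 0.0714 and 0.366 CPM in the distal metastases. Clca1, a secreted regulator of chloride channels in goblet cells, measured 79.2, 7.64 and 6.54 against 0.0999, 0.0714 and 0.0333 CPM, and Krt20, the keratin of intestinal and urothelial surface cells, 25.4, 2.38 and 1.73 against 0.0749, 0.0714 and 0.20 CPM. Primary 1 was the highest of the 6 libraries in each, and the proximal metastases held 0.443, 4.43 and 0.0489 CPM of Muc13.

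Distal 3 also held the highest levels among the 6 libraries of 3 platelet genes, chosen after their values were seen. Ppbp, a platelet chemokine, measured 0.751, 0.39 and 1.76 CPM in the primary and 1.62, 5.59 and 28.8 CPM in the distal libraries, and Itga2b, the platelet integrin, 2.9, 2.65 and 2.58 against 3.97, 10.2 and 43.8 CPM. Pf4, another platelet chemokine, measured 5.36, 5.07 and 3.9 against 4.7, 5.38 and 27 CPM, and its level in distal 2 was close to that in primary 1. The same library held the highest level of Dlk1, an imprinted transmembrane protein, which measured 0.322, 0.039 and 0.136 against 0.25, 0.642 and 25.7 CPM.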
